A study of Mus musculus with 2 samples.

Results

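The genes described are 10 transcription factor genes of limb development. They are Tbx4, Pitx1 and Isl1 (hindlimb), Tbx5 (forelimb), Irx3, Irx5, Shox2, Tbx15 and Emx2 (femur patterning), and Tbx18, a T-box gene placed in neither group. All ATAC-seq peaks inside each gene or within 100 kb of its ends were taken, on mm10 with GENCODE mouse release 21. Overlapping peaks of the femur ends were merged into regions, and 26 of 32388 regions lay at these genes, built from 19 of 28257 proximal peaks and 23 of 27958 distal peaks. ATAC-seq marks open chromatin by where a transposase can cut the DNA. Both groups were growth plate cartilage of FVB mouse embryos (strain labelled FVBNJ) at E15.5, taken from the proximal or the distal end of the femur, with the tissue of a litter pooled (8 animals on average) and 50000 cells per library. The cells were labelled chondrocytes, but the dissected zones held perichondrium as well and no sort was described. Each end was represented by 1 peak list that combined 2 biological replicates, so no replicate error could be computed and no test was made between the ends. A peak is called or not called in these lists, which hold no signal height, so a gene without a peak may still have had weaker open chromatin. Because the tissue was bulk, fewer cells with an open site and less opening per cell cannot be told apart.

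In the embryo, the homeodomain factor Pitx1 and its T-box target Tbx4 act in the hindlimb bud, with the LIM-homeodomain factor Isl1 acting upstream as the bud forms, and Tbx5 has the matching role in the forelimb bud. Iroquois factors Irx3 and Irx5 act together in the early hindlimb, where proximal and anterior bones including the femur depend on them, and Shox2 is needed for growth of the humerus and femur. Within the limb skeleton, Tbx15 and Emx2 are known best from the shoulder blade, and Tbx15 and Tbx18 are close relatives that can pair with each other. Many enhancers of such genes lie far from their promoters, in stretches with few other genes.

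The tissue label was checked against cell type markers. A region within 1 kb of a start was found at 7 of 8 chondrocyte marker genes, at 0 of 4 osteoblast, 0 of 4 skeletal muscle, 2 of 4 endothelial, 0 of 3 blood, 1 of 4 neuronal and 1 of 4 epithelial markers, against 59.1% of all coding genes. The median number of regions within 100 kb was 9 for chondrocyte, 6.5 for osteoblast, 6 for blood, 4.5 for neuronal, 3.5 for epithelial, 2.5 for endothelial and 1.5 for skeletal muscle markers, against 5 for all coding genes. These counts include regions at neighbouring genes. Windows at Bglap, Sp7 and Spi1 held 13, 11 and 8 coding gene starts, with 2, 1 and 2 regions over 1 kb from every start. Those at Ibsp, Dmp1 and Ptprc held 3, 4 and 2 starts, with 6, 2 and 5 such regions, and Hbb-bs 14 and 1. The part of gene content in these medians was not tested. The endothelial genes with a region within 1 kb of a start were Kdr, open in both ends, and Tek, open in the distal list only. Their part in the counts below was not tested.

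Few regions lay at the 10 genes. The median was 2.5 regions per gene (range 1 to 4), against 5 for the 20807 autosomal protein-coding genes, whose middle 50% had 3 to 8. Isl1 and Tbx15 had 4 regions each, Tbx4, Pitx1 and Irx5 had 3, Irx3, Shox2, Emx2 and Tbx18 had 2, and Tbx5 had 1. Of coding genes, 8.75% had fewer regions than Tbx5 and 14.7% had as few or fewer. For Isl1 or Tbx15 these shares were 32.1% and 43.6%. The windows of these genes were also poor in other genes, with a median of 1 coding gene start (range 1 to 3) against 5 for all genes. Among the 6446 coding genes with at most 3 such starts the median was 4 regions. Away from starts the medians were equal. They were 1 region over 1 kb from every start per member window (range 0 to 3) and 1 per window of all genes. The middle 50% of all genes had 0 to 3 such regions. Equal medians of so small a count do not show that the difference was confined to regions near starts.

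**Figure D1:**
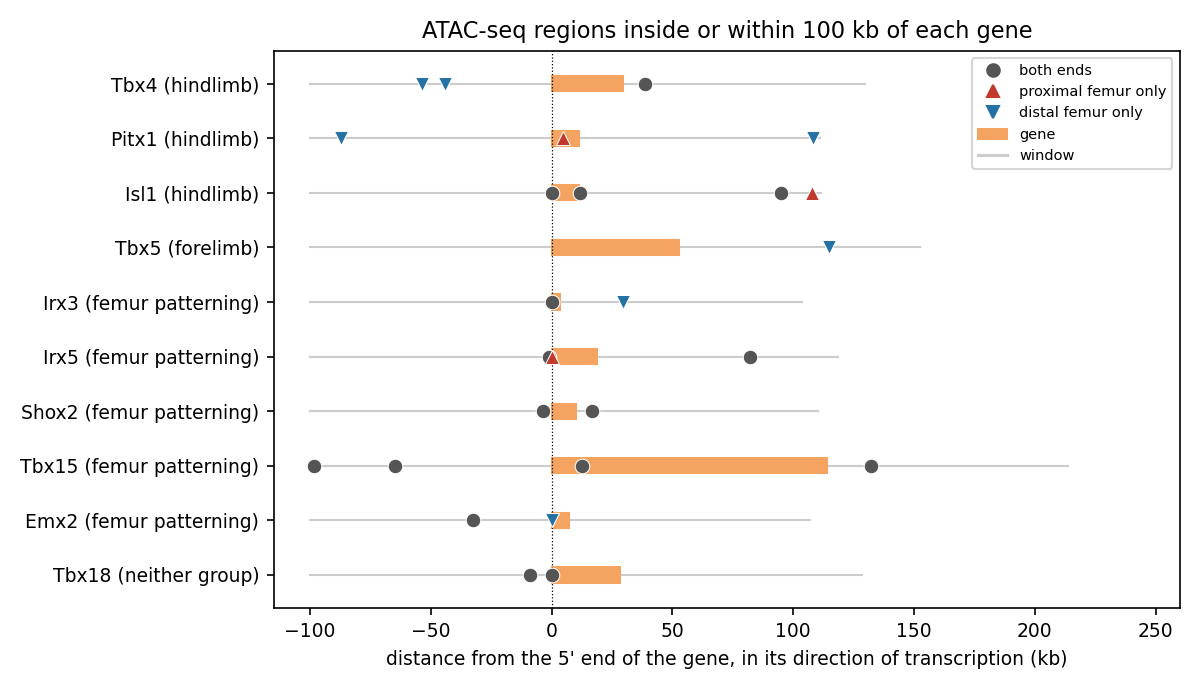
Position of each merged region along the window of each gene, in kb from the gene's 5′ end in its direction of transcription. Circles were called in both femur ends, upward triangles in the proximal femur only and downward triangles in the distal femur only, and the orange bars are the genes. Tbx5 has a single marker, beyond the end of the gene, and Tbx4 has none over its body.

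Single-end regions, called in the list of 1 end and overlapping no peak of the other, made up 10 of the 26 regions (38.5%, 95% Wilson interval 22.4 to 57.5%). The interval covers counting error only. Of all regions 27.0% were single-end, 14.1% in the proximal list only and 12.9% in the distal list only. At the 10 genes, 3 regions were proximal-only and 7 were distal-only. A single-end region lay at 7 of the 10 genes, and 60.8% of coding genes had at least 1 in their window. Of all regions within 1 kb of an annotated start 12.2% were single-end, and of those farther away 38.0%. The member regions did not show this gap, with 5 of 13 near starts (38.5%, interval 17.7 to 64.5%) and 5 of 13 away from them (38.5%, same interval). These starts are of any annotated gene, and the 5 near starts include regions over the starts of the neighbours Tbx2 and Pcbd2. The nearest peak of the other end lay a median of 58.3 kb away from the 10 single-end member regions (range 0.762 to 168 kb). It was over 5 kb away for 9 of them. No such distance is given here for all single-end regions, and the windows of these genes held few regions of any kind. The gaps therefore do not measure how specific a region was to 1 end.

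**Figure D2:**
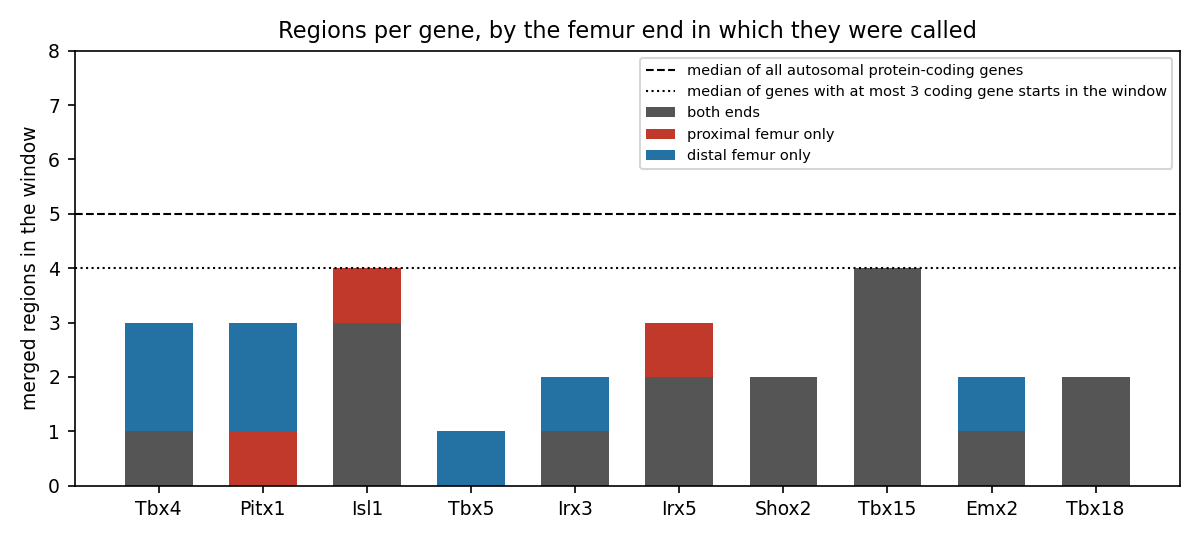
Merged regions per gene, stacked by the femur end in which they were called. The dashed line marks the median of all autosomal protein-coding genes (5) and the dotted line that of genes with at most 3 coding gene starts in the window (4), and no gene of the 10 rises above 4.

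The gene groups differed in their total counts, but the counts per gene overlapped, at 3 to 4 for hindlimb and 2 to 4 for femur patterning genes. Hindlimb genes had 10 regions (3.33 per gene), with 6 proximal and 8 distal peaks, and 6 regions were single-end (60%, interval 31.3 to 83.2%). Femur patterning genes had 13 regions (2.6 per gene), with 11 proximal and 12 distal peaks, and 3 were single-end (23.1%, interval 8.18 to 50.3%). The forelimb gene Tbx5 had 1 region, distal-only, and Tbx18 had 2 regions, both shared (0% single-end, interval 0 to 65.8%). The intervals of hindlimb and femur patterning genes overlapped. The hindlimb interval lay above the 27.0% of all regions but held the 38.0% of regions over 1 kb from starts. That was the class of 6 of the 10 hindlimb regions (3 of these 6 were single-end). The other 4 lay within 1 kb of a start, and 3 of them were single-end, against 12.2% of all such regions. These 3 lay over the starts of Tbx2 and Pcbd2 and over an alternative start of Pitx1. The interval treats regions as independent, though single-end regions numbered 2 of 3 at Tbx4, 3 of 3 at Pitx1 and 1 of 4 at Isl1. Of the 6 single-end regions at hindlimb genes, however, 3 were closer to the 5′ end of another coding gene. Without regions of that kind hindlimb genes had 3 of 7 single-end (42.9%) and femur patterning genes 3 of 10 (30%). The region counts by this rule were thus 7 and 10, beside 1 at Tbx5, and Tbx4 kept only its downstream region. Those 10 still include the upstream Shox2 region, which lay over a start of Rsrc1 other than its 5′ end.

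**Figure D3:**
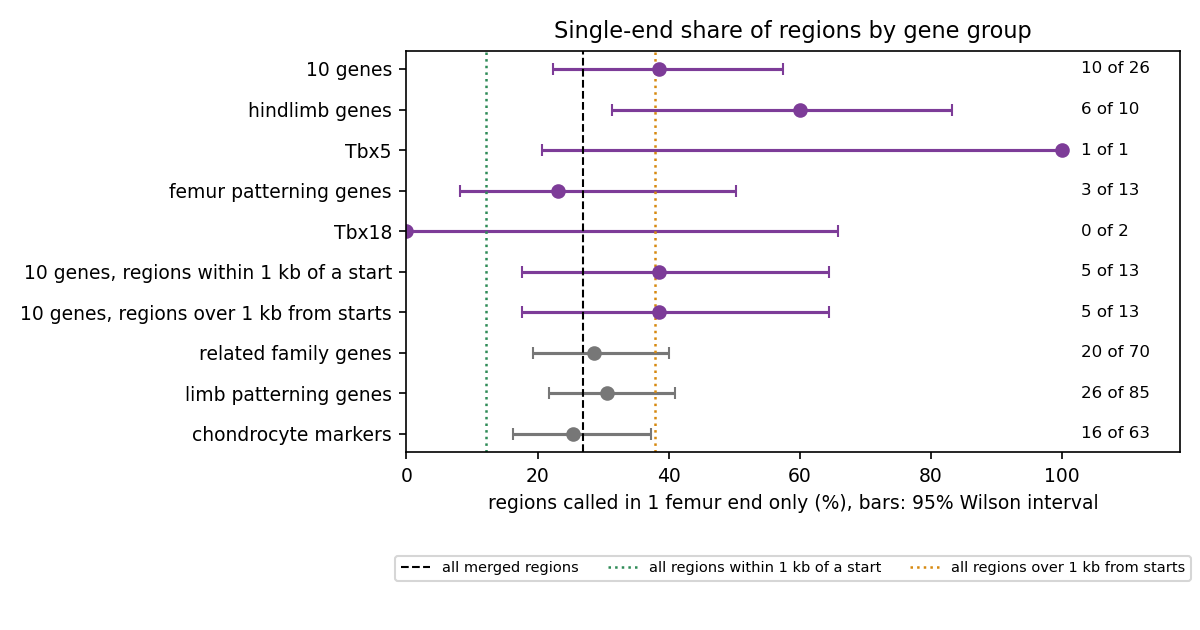
Share of regions called in 1 femur end only, in percent, by gene group, with 95% Wilson intervals as bars and the number of regions at the right. Hindlimb genes stand at 60% and femur patterning genes at 23.1% with overlapping intervals, beside vertical lines for all regions (27.0%), those within 1 kb of a start (12.2%) and those farther away (38.0%).

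Promoter regions, within 1 kb of an annotated start of the gene itself, were found at 7 of the 10 genes, against 59.1% of coding genes. They were called in both ends at Isl1, Irx3, Irx5, Tbx15 and Tbx18, in the proximal list only at Pitx1 and in the distal list only at Emx2. Thus 2 of 10 genes had a promoter region in 1 end only, a state held by 4.07% of coding genes. The Pitx1 and Tbx15 regions lay over alternative starts, 4767 and 13379 bp from the 5′ end, and the Emx2 region also overlapped Emx2os. Irx5 counted as both ends through a shared region 983 bp upstream, while the region over its 5′ end was proximal-only. Tbx4, Tbx5 and Shox2 had no promoter region in either list.

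Tbx4 (chromosome 11, 85886422 to 85916097, plus strand), the T-box factor of hindlimb outgrowth, had 1 proximal and 3 distal peaks. The shared region lay downstream of the gene, 38.8 kb from its 5′ end (85925177 to 85925825). The distal-only regions lay upstream. That at 85832158 to 85832871 covered the start of the neighbouring T-box gene Tbx2, 53.6 kb before Tbx4, and the nearest proximal peak was 92.4 kb away. That at 85841997 to 85842317 was 321 bp wide and lay 44.1 kb before Tbx4, past the end of Tbx2 and overlapping no gene. Both regions upstream of Tbx4 were thus called in the distal list alone, but neither had Tbx4 as its nearest coding gene start. For the 321 bp region that start was of Gm11444, 8.0 kb away. The central 200 bases of the regions upstream and downstream without a gene are shown because these regions lie away from any annotated start, plus strand, with letters of the searched motifs in capitals (PITX GGATTA in the first), at chr11:85842058-85842257 and chr11:85925402-85925601.
Tbx4 upstream, distal-only: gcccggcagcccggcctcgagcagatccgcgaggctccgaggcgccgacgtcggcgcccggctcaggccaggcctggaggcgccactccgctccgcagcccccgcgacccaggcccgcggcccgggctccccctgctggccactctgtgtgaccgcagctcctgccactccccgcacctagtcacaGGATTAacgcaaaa
Tbx4 downstream, shared: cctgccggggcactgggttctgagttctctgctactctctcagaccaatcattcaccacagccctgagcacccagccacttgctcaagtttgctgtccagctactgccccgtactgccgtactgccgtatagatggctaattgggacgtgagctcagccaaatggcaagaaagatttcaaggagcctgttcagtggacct

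The RefSeq start of Tbx4 is an alternative start 10343 bp inside the gene model used here, and the 250 bases before it (GRCm38.p6, chr11:85896515-85896764, plus strand) overlapped no region. They are shown beside those before Isl1 (chr13:116309689-116309938, minus strand), all 250 of which lay in a shared region, and those before Shox2 (chr3:66981772-66982021, minus strand), which overlapped none. CpG pairs are in capitals.
Tbx4 promoter, alternative start: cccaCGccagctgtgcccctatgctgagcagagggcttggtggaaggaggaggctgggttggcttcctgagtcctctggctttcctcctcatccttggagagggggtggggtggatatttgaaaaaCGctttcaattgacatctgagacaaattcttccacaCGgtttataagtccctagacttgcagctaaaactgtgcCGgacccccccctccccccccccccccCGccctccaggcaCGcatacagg
Isl1 promoter: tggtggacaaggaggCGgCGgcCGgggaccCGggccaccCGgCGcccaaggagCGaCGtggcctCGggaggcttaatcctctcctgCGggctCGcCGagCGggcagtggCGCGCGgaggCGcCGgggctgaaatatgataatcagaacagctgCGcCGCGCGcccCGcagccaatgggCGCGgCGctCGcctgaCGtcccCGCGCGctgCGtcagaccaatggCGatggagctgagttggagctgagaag
Shox2 promoter: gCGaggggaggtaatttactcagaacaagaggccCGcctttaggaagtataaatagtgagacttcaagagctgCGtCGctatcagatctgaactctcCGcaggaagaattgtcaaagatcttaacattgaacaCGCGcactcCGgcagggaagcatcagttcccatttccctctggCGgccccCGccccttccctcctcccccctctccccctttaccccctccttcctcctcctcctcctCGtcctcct
The open promoters held 33 CpG pairs at Isl1, 24 at Emx2, 15 at Tbx18 and 13 at Irx3, and the Shox2 and Tbx4 promoters without a region held 11 and 6. Over 31396 autosomal RefSeq promoters, 39.1% overlapped a region, with a median of 17 CpG pairs where they did and 3 where they did not. Both genes without a region thus had CpG counts between these medians, as did the open promoters of Tbx18 and Irx3. All 250 bases counted at Irx3, Emx2 and Tbx18 lay in annotated exons, and the Emx2 region was distal-only. RefSeq entries were matched for 6 of the 10 genes.

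Pitx1 (chromosome 13, 55825051 to 55836192, minus strand), the homeodomain factor that marks the hindlimb field, had 1 proximal and 2 distal peaks and no shared region. The proximal-only region (55831122 to 55831576) lay inside the gene over an alternative coding start, 4767 bp from the 5′ end, and the nearest distal peak was 92 kb away. The distal-only region at 55727088 to 55728188 was 1101 bp wide, at percentile 98.5 of distal-only regions, and covered the start of Pcbd2, a neighbouring gene. The distal-only region at 55923565 to 55923849, upstream of Pitx1 inside the long noncoding gene Gm47071, was 285 bp wide, at percentile 1.7. Its centre (chr13:55923608-55923807, plus strand) is shown as the distal-only site whose nearest coding start is that of Pitx1.
Pitx1 upstream, distal-only: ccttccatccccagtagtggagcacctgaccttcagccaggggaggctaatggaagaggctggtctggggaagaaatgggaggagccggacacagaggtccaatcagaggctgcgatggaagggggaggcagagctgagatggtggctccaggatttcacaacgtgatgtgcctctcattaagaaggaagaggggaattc

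Isl1 (chromosome 13, 116298281 to 116309689, minus strand), the LIM-homeodomain factor of hindlimb initiation, had 4 proximal and 3 distal peaks. The region over its start (116309369 to 116310303) was shared and of like width in both lists, 935 bp in the proximal and 899 bp in the distal list. A second shared region lay just past its 3′ end (116297067 to 116297909) and a further one 94.8 kb from its start (116214208 to 116214853). The proximal-only region (116201242 to 116201984) lay 107.7 kb from the start, and a distal peak was found 8.17 kb from it. Isl1 was the hindlimb gene with most of its regions shared, 3 of 4, where Tbx4 had 1 of 3 and Pitx1 0 of 3. The centre of the shared region far downstream (chr13:116214431-116214630, plus strand) is shown for its PITX letters, in capitals.
Isl1 downstream, shared: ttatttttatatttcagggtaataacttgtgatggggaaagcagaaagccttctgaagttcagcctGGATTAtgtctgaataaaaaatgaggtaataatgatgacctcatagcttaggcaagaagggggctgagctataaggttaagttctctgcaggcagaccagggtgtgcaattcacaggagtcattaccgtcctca

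Tbx5 (chromosome 5, 119832668 to 119885219, plus strand), the forelimb counterpart of Tbx4, had 0 proximal peaks and 1 distal peak. This region (119947365 to 119947933, 569 bp) lay 62 kb past the end of the gene, and the nearest proximal peak was 168 kb away. No peak of either list lay over the gene body or its start. The central 200 bases (chr5:119947550-119947749, plus strand) are shown as the only region called within 100 kb of Tbx5, with the AP-1 letters TGACTCA in capitals.
Tbx5 downstream, distal-only: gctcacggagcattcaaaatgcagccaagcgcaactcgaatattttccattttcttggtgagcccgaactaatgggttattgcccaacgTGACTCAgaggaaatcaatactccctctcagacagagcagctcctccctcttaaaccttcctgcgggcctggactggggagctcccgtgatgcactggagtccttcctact

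Irx3 (chromosome 8, 91798525 to 91802067, minus strand), an Iroquois homeodomain factor, had 1 proximal and 2 distal peaks. Its promoter region (91801331 to 91802316) was shared but unequal, 986 bp in the proximal list and 363 bp in the distal list, a ratio of 2.72. The distal-only region (91771933 to 91772453) lay 29.6 kb downstream. Its centre (chr8:91772094-91772293, plus strand) is shown because it held both the IRX letters ACAGCTGT and the AP-1 letters TGAGTCA, in capitals.
Irx3 downstream, distal-only: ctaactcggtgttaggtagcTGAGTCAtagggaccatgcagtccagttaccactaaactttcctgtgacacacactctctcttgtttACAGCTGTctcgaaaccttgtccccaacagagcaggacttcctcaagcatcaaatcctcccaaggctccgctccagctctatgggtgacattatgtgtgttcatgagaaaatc

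Irx5 (chromosome 8, 92357625 to 92376286, plus strand), the partner of Irx3, had 3 proximal and 2 distal peaks. A proximal-only region of 584 bp covered its start (92357369 to 92357952), and a shared region (92355714 to 92356642) over the start of the neighbouring noncoding gene Crnde lay 983 bp upstream, close enough to count as an Irx5 promoter region too. The distal peak of that pair was 762 bp from the proximal-only region, the shortest such gap among the 10 single-end regions. The other shared region lay 82.1 kb from the start (92439753 to 92440407). Irx3 and Irx5 were thus open at their starts in both lists by the distance used, while the sequence at the Irx5 start itself had a proximal peak alone.

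Shox2 (chromosome 3, 66971727 to 66981771, minus strand), the homeodomain factor of humerus and femur growth, had 2 proximal and 2 distal peaks, in 2 shared regions, and none within 1 kb of its starts. The region at 66985543 to 66986257 lay 3.8 kb upstream over a start of Rsrc1, which is read in the opposite direction and has its nearest start 0.381 kb from that of Shox2. The region at 66964020 to 66965061 lay downstream of Shox2, with 746 bp in the proximal and 1042 bp in the distal list (ratio 0.716). Its centre (chr3:66964441-66964640, plus strand) is shown as the member site whose width leaned most to the distal list.
Shox2 downstream, shared: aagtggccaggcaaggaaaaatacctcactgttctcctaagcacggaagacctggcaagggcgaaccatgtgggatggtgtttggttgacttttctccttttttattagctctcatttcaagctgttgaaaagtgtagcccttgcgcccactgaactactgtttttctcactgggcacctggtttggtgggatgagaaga

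Tbx15 (chromosome 3, 99240381 to 99354259, plus strand), with the longest gene body of the 10 at 113879 bp, had 4 proximal and 4 distal peaks in 4 shared regions. The region at 99252974 to 99254178 covered an alternative coding start 13379 bp from the 5′ end, with 1205 bp in the proximal and 831 bp in the distal list. The regions 98.6 and 65.0 kb upstream lay at the start of Wars2 and inside it. The region past the 3′ end (99372427 to 99373156) was 730 bp wide in the proximal and 716 bp in the distal list, and its centre (chr3:99372692-99372891, plus strand) is shown with the AP-1 letters TGAGTCA in capitals.
Tbx15 downstream, shared: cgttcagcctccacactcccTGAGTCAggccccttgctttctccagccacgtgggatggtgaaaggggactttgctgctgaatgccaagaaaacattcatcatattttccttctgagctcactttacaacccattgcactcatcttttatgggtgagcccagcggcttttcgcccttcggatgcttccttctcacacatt

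Emx2 (chromosome 19, 59458372 to 59465357, plus strand), a homeobox gene, had 1 proximal and 2 distal peaks. The region over its start (59458149 to 59458761, 613 bp) was distal-only, and the nearest proximal peak was 32.3 kb away. That peak belonged to the shared region 32.5 kb upstream (59425260 to 59425898), inside the antisense gene Emx2os, whose start is also covered by the promoter region. A peak over both starts of Emx2 and Emx2os cannot be assigned to either gene.

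Tbx18 (chromosome 9, 87702800 to 87731260, minus strand), the relative of Tbx15, had 2 proximal and 2 distal peaks. The region over its start (87729512 to 87731721) was 2210 bp wide, at percentile 99.8 of shared regions, with 2195 bp in the proximal and 1391 bp in the distal list (ratio 1.58). The region 9.1 kb upstream (87740358 to 87741041) had 583 and 684 bp. Its centre (chr9:87740600-87740799, plus strand) is shown for its PITX letters, read on the minus strand and printed here as TAATCC, in capitals.
Tbx18 upstream, shared: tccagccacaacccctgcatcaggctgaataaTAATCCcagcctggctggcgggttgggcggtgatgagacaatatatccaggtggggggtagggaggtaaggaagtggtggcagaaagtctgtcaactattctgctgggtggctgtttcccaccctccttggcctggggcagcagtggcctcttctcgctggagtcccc

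Width was the only graded value the lists held. Shared regions at the 10 genes had a median width of 786 bp (range 526 to 2210) against 812 bp for all shared regions, and single-end regions a median of 576 bp (range 285 to 1101) against 504 bp. The ratio of proximal to distal width had a median of 0.993 at the member regions (range 0.716 to 2.72) and 1.02 over all shared regions, of which 90% lay between 0.769 and 1.46. The promoter regions of Irx3 and Tbx18 lay above that range and the downstream region of Shox2 below it. The other 13 shared regions lay within it. Width depends on where the caller set the edges and has no error here.

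**Figure D4:**
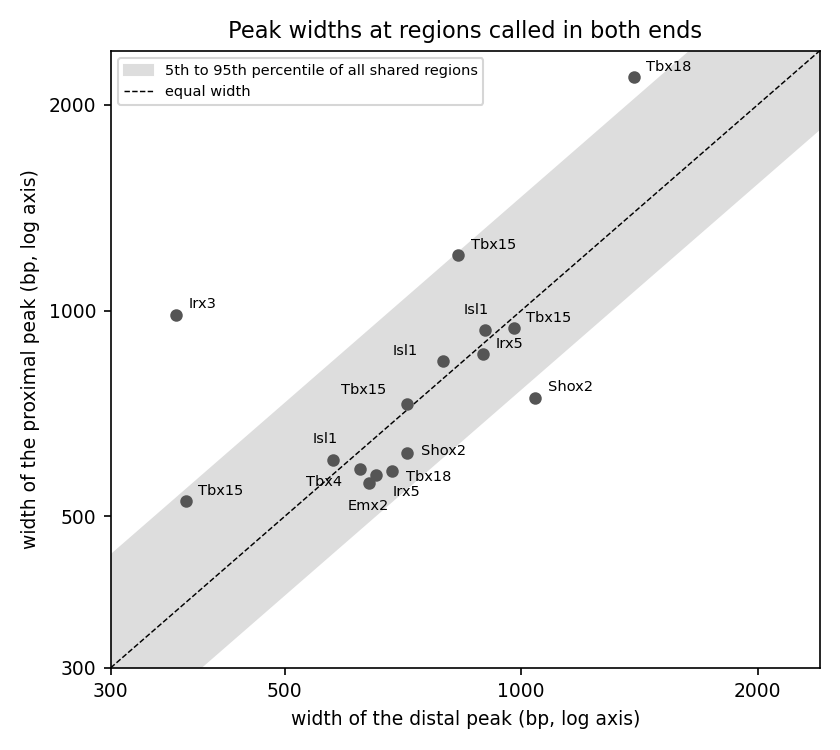
Width of the proximal peak against width of the distal peak, in bp on log axes, for each of the 16 shared member regions. The grey band holds 90% of all shared regions, and Irx3 (2.72), Tbx18 (1.58) and Shox2 (0.716) lie outside it.

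The sequence of the 26 regions was searched on both strands in the central 200 bases. A match is a run of letters and not a bound site. The PITX letters GGATTA occurred in 5 regions (19.2%, interval 8.51 to 37.9%), against 4.37% of all regions, with 2 of them at Isl1 and the others at Tbx4, Irx5 and Tbx18. Over the whole region the shares were 26.9% and 17.5%. The AP-1 letters TGANTCA occurred in 3 regions (11.5%, interval 4 to 29%), against 23.9% of all. The IRX letters ACANNTGT occurred in 2 (7.69%) against 4.36%. The T-box letters AGGTGTG, the homeodomain letters TAATTA and the SOX letters ACAATGG occurred in 0 of 26, which allows a share of up to 12.9% by the Wilson interval, and in 3.42, 3.05 and 1.21% of all regions. Over the whole region the homeodomain letters occurred in 3 member regions, 11.5% against 11.2% of all. T-box and SOX letters stayed at 0, against 13.1 and 5.59% of all. For AP-1 the whole-region shares were 26.9% and 40.9%, and for IRX 7.69% and 16.9%. These motifs were chosen with the gene families in view, and no motif was tested. The median GC content was 57.7% (range 42.4 to 74.1) against 51.6% over all regions.

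Outside the windows, the nearest regions to the 100 kb limit were, just inside, a distal-only region 87.4 kb from Pitx1, a proximal-only region 96.3 kb from Isl1, a distal-only region 96.9 kb from Pitx1 and a shared region 98.6 kb from Tbx15. Just outside lay shared regions 105 kb from Tbx15, 105 kb from Isl1 and 112 kb from Emx2, and a proximal-only region 108 kb from Irx3. Within 500 kb, a distance chosen after the data were seen, Tbx5 had 4 regions, Tbx4 8, Tbx18 10, Shox2, Tbx15 and Emx2 11 each, Isl1 12, Irx3 14, Irx5 21 and Pitx1 24, against a median of 20 for all coding genes. Tbx5 had the fewest regions of the 10 genes at both distances. The single-end shares came together, at 29.5% for hindlimb genes (13 of 44, interval 18.2 to 44.2%) and 29.5% for femur patterning genes (18 of 61, interval 19.6 to 41.9%).

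The 556 kb between Irx3 and Irx5 held 0 other coding gene starts and, away from the promoters, 7 regions, of which 5 were single-end (71.4%, against 38.0% of all regions over 1 kb from starts). The 5 formed a run from 108 to 197 kb from the Irx3 start, in the order proximal-only, proximal-only, distal-only, distal-only and proximal-only. The first began at 91909965 and the last ended at 91999585. The shared regions lay farther along, 207 and 388 kb from the Irx3 start. Irx3 and Irx5 count these regions at 500 kb in common, and the run was picked out after its values were seen.

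**Figure D5:**
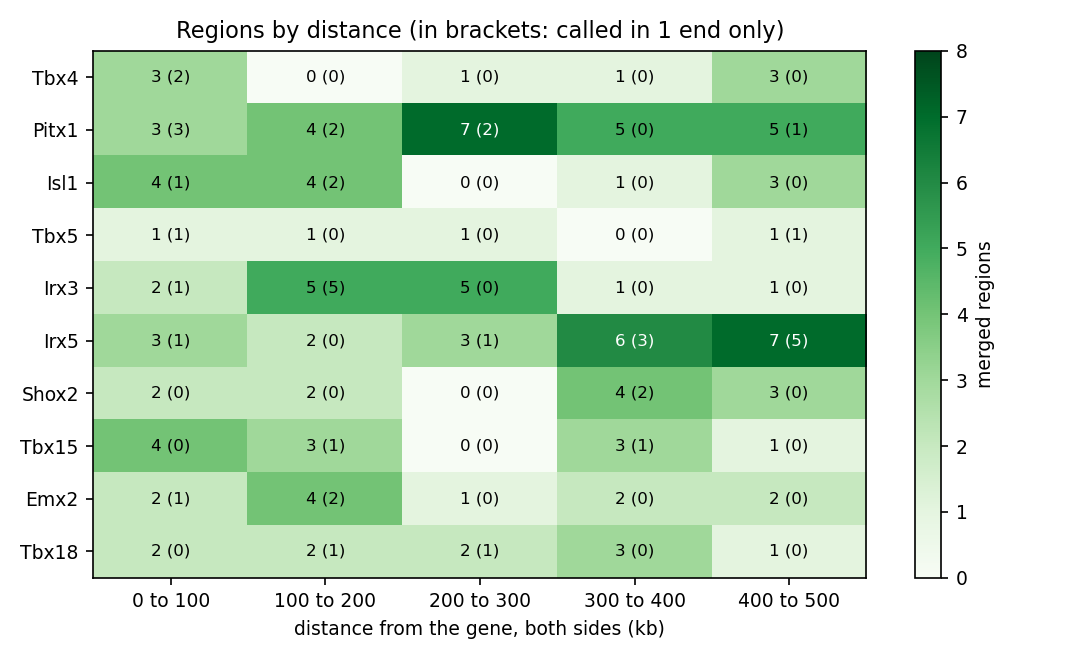
Merged regions by distance from each gene, in 100 kb steps on both sides together, with the number called in 1 end only in brackets and colour showing the region count. The 100 to 200 kb step of Irx3 holds 5 regions, all single-end, and Tbx5 has at most 1 region in any step.

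Relatives of these genes were counted in the same way. A list of 17 related T-box and homeodomain genes had a median of 3 regions (range 0 to 10), and 20 of their 70 regions were single-end (28.6%, interval 19.3 to 40.1%), close to the 27.0% of all regions. These include the 3 regions of Tbx4, which also lie in the window of Tbx2, and without them 18 of 67 were single-end (26.9%). A promoter region was present at 7 of 17, against 59.1% of coding genes. It was distal-only at Tbx2 and called in both ends at the other 6, Tbx3, Tbx20, Pitx3, Isl2, Irx2 and Irx6. The 21 other limb patterning genes had a median of 3 regions (range 0 to 15), with 26 of 85 single-end (30.6%, interval 21.8 to 41%, also around 27.0%), and 10 of 21 had a promoter region, called in both ends each time. Gli3, a transcription factor of the hedgehog pathway, had 15 regions, and Hand2, a posterior limb factor, had 6, all shared. Shh, the posterior limb signal, had 3 regions, all proximal-only and none at its promoter. Irx1 and Alx4 had 0 regions.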

How the data were processed

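ATAC-seq was carried out on the proximal and distal femoral growth plate, with 2 biological replicates per end. The submitters' processing notes name Bowtie2 2.2.8 and MACS2 2.1.1 with mm10. The authors removed duplicates, called peaks and kept those reproducible between replicates at an irreproducible discovery rate (IDR) below 0.05. The deposited files hold peak positions in base pairs, 1 list per femur end combining the replicates, with no counts, signal or score, so the depth behind a peak is unknown and the reads were not analysed here. The lists used here hold peaks on 19 autosomes, and the X and Y chromosomes were not analysed here.

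From the lists, peaks sharing at least 1 bp were merged into regions with Python 3.11.15, NumPy 2.4.6 and SciPy 1.17.1. A region was single-end if it held peaks of 1 list. Regions were assigned to a gene when inside it or within 100 kb of it (GRCm38, GENCODE mouse release 21), and were promoter regions within 1 kb of a start. Shares carry 95% Wilson intervals, for counting error only. Motif letters were searched in the central 200 bp. The counting was tested on simulated data. Other windows, overlap rules, motif lengths and peak width limits were tried. All 10 genes were named, with neighbouring coding genes and examples from the lists of related genes, whose other members enter the counts. A further related gene is not reported here. The members and gene lists were chosen with earlier results of these data known.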

Additional observations from a re-analysis of the deposited data

How the results depend on the processing

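Each count was repeated with other settings, and most depended on the window. With 50 kb, the 10 genes had 17 regions with 5 single-end, hindlimb genes had 5 regions with a single-end share of 40%, and Tbx5 had 0. With 200 kb, the 10 genes had 53 regions with 23 single-end, hindlimb genes 18, Tbx5 2 and femur patterning genes 29, and the single-end shares were 55.6% for hindlimb and 37.9% for femur patterning genes. With 500 kb, a window chosen after seeing the data, the 10 genes had 119 regions with 35 single-end, hindlimb genes 44, Tbx5 4 and femur patterning genes 61, and the single-end share of hindlimb genes fell from 60% to 29.5%. With peaks below the median width of their list left out, the 10 genes had 13 regions with 5 single-end, hindlimb genes 5, Tbx5 0 and femur patterning genes 7. With distance taken from the start only, Tbx5 had 0. Where Tbx5 had 0 regions no share could be given. Requiring reciprocal overlap of 50% gave single-end shares of 42.3% for the 10 genes, 60% for hindlimb and 30.8% for femur patterning genes. The number of genes with a promoter region was 7 under each setting except with the wider peaks, where it was 5. No paired analysis was possible because each list combines its replicates, and for the same reason no replicate could be left out. A peak missing from a list may reflect depth as well as closed chromatin, and these cannot be told apart here. The lists do not hold peak heights, so differences in opening within shared regions were not analysed here.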
